A study of Mus musculus with 4 samples.

Results

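Accessible regions in gene deserts are stretches of open chromatin that lie far from any protein-coding gene. They were found by merging overlapping called intervals of 4 mouse Omni-ATAC-seq libraries on chromosomes 1 to 19 and X. A region was kept when it lay more than 100 kb from every protein-coding gene body of GRCm38 (mm10) and had an interval in at least 2 of the 4 lists. This gave 5658 desert regions, 6.32% of the 89556 regions with an interval in at least 2 lists and a subset of the 120423 merged regions in all. A further 2218 regions as far from genes had an interval in 1 list and were left out by the rule.

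The libraries came from cultured bone marrow cells of C57BL/6J mice, 1 library per group. The groups were Cxcr3-/- monocytes, WT monocytes, Cxcr3-/- CMP/GMP and WT CMP/GMP, where CMP/GMP stands for a mixture of common myeloid progenitors with granulocyte-monocyte progenitors. In Omni-ATAC-seq a transposase cuts and tags open DNA, so that tags pile up where chromatin is accessible. Cxcr3 encodes a chemokine receptor, and the study concerned its role while macrophages form in liver cancer. The labels name hepatocellular carcinoma as the disease state of every sample, whereas the series text describes cells grown in culture. Age, sex, the deleted part of Cxcr3, the culture conditions and the number of animals are not given in the sources used here.

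Gene deserts are long intervals without protein-coding genes, and many of them border genes for developmental and lineage transcription factors. Enhancers inside a desert can act on a promoter at its edge across long distances through chromatin looping, and several such distant enhancers are known in blood cells, for example for Myc and Zeb2. Deserts also hold long noncoding RNA (lncRNA) genes and microRNA (miRNA) genes, whose own promoters are then the accessible sites.

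Among the desert regions were the promoters of 106 lncRNA genes, meaning that the window from 250 bases before to 50 bases after the annotated start shared a base with a desert region. The 8 windows below are shown because they carry the letters discussed with them, belong to lncRNAs known from myeloid cells, or differ most clearly between cell types. They were chosen after their values were seen. Sequences are from RefSeq, build GRCm38.p6, written along the gene's strand. Capitals mark the letters GAGGAAGT (PU.1, the lead transcription factor of myeloid cells), TGANTCA (AP-1), GCTGANTCA (MAF, which contains the AP-1 letters), TTGCNNAA (C/EBP), GGGNGTGGC (KLF) and GAAANNGAA (IRF), on either strand.
Gm12708, chr4:95193054-95193353, plus strand: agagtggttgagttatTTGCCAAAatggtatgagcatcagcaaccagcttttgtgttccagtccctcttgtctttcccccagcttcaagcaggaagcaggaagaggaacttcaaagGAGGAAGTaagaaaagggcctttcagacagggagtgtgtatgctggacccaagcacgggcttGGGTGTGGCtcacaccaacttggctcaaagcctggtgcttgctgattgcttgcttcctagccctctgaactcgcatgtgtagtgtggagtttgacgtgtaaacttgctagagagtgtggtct
Gm38397, chr13:110903249-110903548, plus strand: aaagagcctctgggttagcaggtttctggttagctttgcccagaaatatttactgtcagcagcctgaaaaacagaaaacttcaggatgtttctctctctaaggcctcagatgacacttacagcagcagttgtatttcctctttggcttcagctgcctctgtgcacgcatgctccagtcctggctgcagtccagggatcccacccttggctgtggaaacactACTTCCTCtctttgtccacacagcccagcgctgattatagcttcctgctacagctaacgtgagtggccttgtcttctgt
Gm6634, chr3:70807242-70807541, minus strand: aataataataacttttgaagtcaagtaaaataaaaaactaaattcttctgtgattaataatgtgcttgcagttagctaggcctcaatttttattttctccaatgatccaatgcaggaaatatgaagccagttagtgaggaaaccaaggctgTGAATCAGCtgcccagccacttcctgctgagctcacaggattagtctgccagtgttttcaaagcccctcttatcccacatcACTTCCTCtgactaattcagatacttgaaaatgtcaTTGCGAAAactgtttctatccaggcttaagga
Morrbid, chr2:128429302-128429601, minus strand: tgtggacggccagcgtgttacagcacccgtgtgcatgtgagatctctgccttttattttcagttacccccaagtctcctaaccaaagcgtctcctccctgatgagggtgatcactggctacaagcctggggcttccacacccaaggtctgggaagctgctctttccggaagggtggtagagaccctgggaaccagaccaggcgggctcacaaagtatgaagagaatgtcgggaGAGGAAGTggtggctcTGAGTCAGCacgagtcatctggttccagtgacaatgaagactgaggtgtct
Mir99ahg, chr16:77329078-77329377, plus strand: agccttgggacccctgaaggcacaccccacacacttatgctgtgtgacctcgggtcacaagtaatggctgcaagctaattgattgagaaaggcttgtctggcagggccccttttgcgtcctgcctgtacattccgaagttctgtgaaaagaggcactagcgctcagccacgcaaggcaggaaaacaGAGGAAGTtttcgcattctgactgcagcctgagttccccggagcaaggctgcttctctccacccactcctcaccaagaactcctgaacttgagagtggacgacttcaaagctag
Mexis, chr4:53270183-53270482, minus strand: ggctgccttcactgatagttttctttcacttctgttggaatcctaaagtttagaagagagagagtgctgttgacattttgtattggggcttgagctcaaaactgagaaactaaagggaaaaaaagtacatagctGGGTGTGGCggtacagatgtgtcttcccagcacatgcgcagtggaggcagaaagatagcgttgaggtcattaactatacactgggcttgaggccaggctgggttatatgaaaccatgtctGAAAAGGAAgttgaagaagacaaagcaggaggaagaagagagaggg
4930471E19Rik, chr10:120636058-120636357, minus strand: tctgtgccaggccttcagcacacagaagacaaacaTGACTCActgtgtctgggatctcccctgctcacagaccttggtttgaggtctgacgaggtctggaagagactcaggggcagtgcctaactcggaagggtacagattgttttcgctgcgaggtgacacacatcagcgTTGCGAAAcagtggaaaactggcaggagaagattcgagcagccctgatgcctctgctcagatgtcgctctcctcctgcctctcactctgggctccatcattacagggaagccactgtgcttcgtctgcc
Gm15323, chr13:112000759-112001058, plus strand: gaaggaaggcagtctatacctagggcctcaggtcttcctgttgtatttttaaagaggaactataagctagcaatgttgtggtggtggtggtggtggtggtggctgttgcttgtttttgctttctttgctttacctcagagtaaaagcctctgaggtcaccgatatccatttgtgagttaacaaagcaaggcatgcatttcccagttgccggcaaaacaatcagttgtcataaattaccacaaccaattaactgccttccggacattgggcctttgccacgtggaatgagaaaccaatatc

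The PU.1 letters stood in 14 of the 106 windows, 13.2% (95% Clopper-Pearson interval 7.41 to 21.2%, counting error only), against 3.34% of all 26794 promoter windows of this length. In lncRNA promoters of the deserts that had no accessible region the share was 3.08% (2.29 to 4.04%, 50 of 1625), and in protein-coding promoters under a region it was 3.36% (3.01 to 3.73%). The RUNX letters, TGTGGTT, were in 13.2% of the 106 windows, against 5.33% of all promoters, but with deserts defined by a limit of 200 kb the share was 5.56%. The C/EBP letters were in 22.6% (15.1 to 31.8%), against 10.7% of all promoters. AP-1 letters stood in 14.2% (8.14 to 22.3%), against 7.88%. MAF letters were in 4 windows. The ETS-IRF letters, GGAANNGAA, were in 14 windows (13.2%, against 8.08%) and the IRF letters in 12 (11.3%, against 8.48%). GATA letters, AGATAAG, had 2.83% against 3.0%, KLF letters 4.72% against 5.98%, NF-kB letters, GGANTTTCC, 2.83% against 1.26%, and the CTCF consensus was in 0 of 106, which allows a share of up to 3.42%. Desert lncRNA promoters without a region had C/EBP letters in 14.9% (13.2 to 16.7%) and AP-1 letters in 10.3% (8.90 to 11.9%). There ETS-IRF had 9.23% (7.87 to 10.7%) and IRF 10.6% (9.19 to 12.2%). These 4 intervals overlapped those of the 106 windows. RUNX had 6.09% (4.98 to 7.37%) there, GATA 5.17%, KLF 2.65% and NF-kB 1.17%. In other accessible lncRNA promoters the PU.1 share was 4.81% (3.87 to 5.91%). The PU.1 and ETS-IRF letters can overlap each other, as can those of IRF and ETS-IRF. A match describes the letters of a window and is not a measured binding site.

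The 106 accessible lncRNA promoters were poor in CpG dinucleotides, with a median of 4.5 per window, against 3 in the 1625 desert lncRNA promoters without a region, 16 in other accessible lncRNA promoters and 22 in accessible protein-coding promoters. They made up 6.12% of the 1731 lncRNA genes with a desert promoter window. Of the other lncRNA genes 22.9% had an accessible promoter, and of the protein-coding genes 57.6%. In 65 of the 106 (61.3%) the region was called in all 4 libraries, against 39.4% of desert regions and 49.8% of all regions. In 13 (12.3%) it was called in both monocyte libraries only, against 26.9% of desert regions and 19.4% of all, and in 11 (10.4%) in both CMP/GMP libraries only, against 14.6% and 9.79%.

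Values are given as summit tags, the number of tags stacked at the highest point of a region in a library. Log2 ratios compare summit tags after scaling the libraries to the regions called in all of them, with exact 95% intervals that cover counting error only. There was 1 library per group, so no difference has a replicate check and no p-value is given. A region that was not called in a library may still hold tags there, so it has no ratio. In cultured bulk samples, fewer cells with an open region and less opening per cell cannot be told apart.

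Gm12708, a lncRNA of the desert beside Jun, which encodes a subunit of AP-1, had 89 summit tags in Cxcr3-/- monocytes and 118 in WT monocytes, against 85 in Cxcr3-/- CMP/GMP and 50 in WT CMP/GMP. In Cxcr3-/- cells monocytes over CMP/GMP gave a log2 ratio of 0.74 (0.30 to 1.19), and in WT cells 0.86 (0.37 to 1.37). Gm6634, whose window holds PU.1, MAF and C/EBP letters, had 89 tags in Cxcr3-/- monocytes and 86 in WT monocytes, against 31 in Cxcr3-/- CMP/GMP and no call in WT CMP/GMP. Both monocyte libraries were thus higher than the one CMP/GMP library with a call, with a log2 ratio of 2.20 (1.60 to 2.84) in Cxcr3-/- cells. Gm38397 lies in the desert between Plk2 and Actbl2. It had 102 and 96 tags in Cxcr3-/- and WT monocytes, against 64 and 42 in Cxcr3-/- and WT CMP/GMP.

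The clearest contrast was between 4930471E19Rik and Gm15323. 4930471E19Rik, between Hmga2 and Msrb3, had 134 tags in Cxcr3-/- monocytes and 136 in WT monocytes, against 46 in Cxcr3-/- CMP/GMP and 30 in WT CMP/GMP. Its cell type log2 ratio was 2.22 (1.73 to 2.74) in Cxcr3-/- cells and 1.80 (1.22 to 2.42) in WT cells. Gm15323, between Map3k1 and Ankrd55, went the other way, with 27 tags in Cxcr3-/- monocytes and 30 in WT monocytes, against 195 in Cxcr3-/- CMP/GMP and 116 in WT CMP/GMP. Its log2 ratio was −2.17 (−2.81 to −1.59) in Cxcr3-/- cells and −2.33 (−2.96 to −1.74) in WT cells. For both genes the monocyte and CMP/GMP libraries did not overlap. Because these genes were chosen after their values were seen, this separation can follow from the choice. The share of all accessible desert lncRNA promoters with such a separation is not given here. The Gm15323 window held none of the letters searched.

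Morrbid is a lncRNA that limits the pro-apoptotic neighbour gene Bcl2l11 in short-lived myeloid cells. Its promoter region had 26 tags in Cxcr3-/- monocytes and 42 in WT monocytes, against 47 in Cxcr3-/- CMP/GMP and 20 in WT CMP/GMP, and the ranges of the cell types overlapped. It sits in a dense desert: 39 regions were called between Bcl2l11 and Spdye4c, of which 18 were in all 4 libraries, 10 in both monocyte libraries only and 3 in both CMP/GMP libraries only. Over all desert regions these shares were 39.4, 26.9 and 14.6%, and over all regions 49.8, 19.4 and 9.79%. Mexis, a lncRNA known to raise transcription of the cholesterol exporter gene Abca1 in macrophages, had 28 and 21 tags in Cxcr3-/- and WT monocytes, against 48 and 34 in Cxcr3-/- and WT CMP/GMP. Its log2 cell type ratio was −0.10 (−0.83 to 0.60) in Cxcr3-/- cells and −1.08 (−1.93 to −0.25) in WT cells, and by background tags the first of these was 0.22. Firre, an X-linked lncRNA that organizes chromosome contacts in the nucleus, had 40 and 46 tags in Cxcr3-/- and WT monocytes, against 78 and 50 in Cxcr3-/- and WT CMP/GMP, with log2 ratios of −0.28 and −0.50 in Cxcr3-/- and WT cells whose intervals included 0 and which were 0.033 and 0.37 by background tags.

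Several deserts hold miRNA genes, and 19 of the 5658 desert regions lay within 5 kb of one. Among distal regions 73 of 17683 did, and among all regions within 100 kb of a gene 867 of 83898. Both are larger shares than that of desert regions. The clearest case is the desert between Usp25 and Cxadr on chromosome 16, which holds the genes of miR-99a, let-7c and miR-125b, miRNAs known from blood cell differentiation, past the annotated end of the lncRNA Mir99ahg. The Klf14 to Mkln1 desert on chromosome 6 holds the genes of miR-29a and miR-29b. Mature sequences of these miRNAs, the products of the genes next to the regions described, are given from RefSeq (GRCm38.p6) with the seed, bases 2 to 8, in capitals.
mmu-miR-99a-5p, chr16:77598940-77598961, plus strand: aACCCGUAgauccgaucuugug
mmu-let-7c-5p, chr16:77599672-77599693, plus strand: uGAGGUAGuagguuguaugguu
mmu-miR-125b-5p, chr16:77646279-77646300, plus strand: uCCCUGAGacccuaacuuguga
mmu-miR-29a-3p, chr6:31062673-31062694, minus strand: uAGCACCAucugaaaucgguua
mmu-miR-29b-3p, chr6:31063025-31063047, minus strand: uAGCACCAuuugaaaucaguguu
The 2 miR-29 sequences share the seed AGCACCA, and the other 3 have a seed each.

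The Usp25 to Cxadr desert held 32 desert regions, 14 called in both monocyte libraries only, 1 in both CMP/GMP libraries only and 12 in all 4. These patterns made up 26.9, 14.6 and 39.4% of all desert regions, and 19.4, 9.79 and 49.8% of all regions. The strongest, chr16:77602291-77603010, lies 2540 bp from the let-7c gene Mirlet7c-1 and 3290 bp from Mir99a. It had 123 summit tags in Cxcr3-/- monocytes and 121 in WT monocytes and was called in neither CMP/GMP library. Near Mir125b-2, 1581 bp away, a region had 64 and 61 tags in Cxcr3-/- and WT monocytes, against 36 and 28 in Cxcr3-/- and WT CMP/GMP. Another, 2746 bp from Mir125b-2, had 37 and 36 tags in Cxcr3-/- and WT monocytes, against 57 and 41 in Cxcr3-/- and WT CMP/GMP. Its cell type log2 ratios of 0.06 in Cxcr3-/- and −0.57 in WT cells had intervals that included 0. A region 4195 bp from Mir125b-2 was called in CMP/GMP only, with 22 and 21 tags in Cxcr3-/- and WT. The promoter of Mir99ahg had 44 and 50 tags in Cxcr3-/- and WT monocytes, against 35 and 24 in Cxcr3-/- and WT CMP/GMP. The region beside the miR-29 genes, 2289 bp from Mir29b-1, had 57 and 77 tags in Cxcr3-/- and WT monocytes, against 87 and 41 in Cxcr3-/- and WT CMP/GMP. Scaled, these were 67.3 and 71.6 in Cxcr3-/- and WT monocytes, against 64.2 and 49.7 in Cxcr3-/- and WT CMP/GMP, and the intervals of both cell type ratios included 0.

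Desert regions were sparse but clustered. Deserts, counted as sequence more than 100 kb from protein-coding genes, made up 738 Mb, 28.4% of the span between the first and last genes of the chromosomes. They held 7.65 regions per Mb, against 45.0 per Mb elsewhere, a ratio of 0.170. Of 1537 gaps longer than 200 kb between neighbouring genes, 798 held at least 1 desert region, with a median of 4. The 64 gaps with at least 20 held 2042 desert regions, 36.1% of all. The median distance from a desert region to the next in the same gap was 4974 bp, and 64.7% had another within 10 kb. Chromosome 13 had the highest share of desert regions among its regions, 11.7%, followed by chromosome 10 with 10.7%, and chromosome 7 had the lowest, 2.24%.

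The median distance to the nearest protein-coding gene was 179701 bp, 490 desert regions were more than 500 kb away and 99 more than 1 Mb. The farthest, chr5:59996555-59997102 between Pcdh7 and G6pd2, was 1811740 bp from a gene. It was well accessible, with 95 tags in Cxcr3-/- monocytes and 93 in WT monocytes, against 148 in Cxcr3-/- CMP/GMP and 94 in WT CMP/GMP. At the limit of the rule, the nearest member (100007 bp from Smim20) was called in all 4 libraries with 95, 118, 149 and 95 tags in Cxcr3-/- monocytes, WT monocytes, Cxcr3-/- CMP/GMP and WT CMP/GMP, and the nearest region outside it (100000 bp from 1700016C15Rik) was called in both CMP/GMP libraries with 21 and 18 tags in Cxcr3-/- and WT.

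Compared with other regions, desert regions were a little narrower and weaker. Their median width was 296.5 bp, against 305 bp for the 17683 distal regions 10 to 100 kb from a gene and 324 bp for all 83898 regions within 100 kb. Median scaled summit tags were 19.8, against 20.9 in distal regions and 23.6 in all regions within 100 kb. The local background around desert intervals was also lower, at 126, 123, 210 and 147 tags per 10 kb in Cxcr3-/- monocytes, WT monocytes, Cxcr3-/- CMP/GMP and WT CMP/GMP, against 167, 173, 294 and 195 around the other intervals of the same libraries. Some desert regions ranked among the most accessible sites: 525, 422, 291 and 348 desert intervals were among the 10000 best of these libraries in the same order. Of all intervals, desert regions held 4471 of 78244, 4843 of 98257, 3977 of 80171 and 3764 of 69521. Desert intervals were thus less frequent among the best than among all intervals in each library. Of the 5658, 1395 (24.7%) overlapped an annotated lncRNA, against 22.0% of distal regions. No annotated gene of any kind was overlapped by 4071 desert regions, against 13372 of the 17683 distal regions. The shares that did overlap an annotated gene were 28.0% of desert and 24.4% of distal regions.

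The 3 strongest desert regions lie together on chromosome 17 between Esp15 and Esp38, from 39843165 to 39848803, and overlap or flank Rn18s-rs5, a pseudogene related to small-subunit ribosomal RNA. The largest count among them was at chr17:39848095-39848803, with 508 tags in Cxcr3-/- monocytes and 533 in WT monocytes, against 1761 in Cxcr3-/- CMP/GMP and 952 in WT CMP/GMP. Tags from the many genomic copies of ribosomal DNA can be placed at such a sequence, and their part in the result was not tested. The next strongest were chr8:73352762-73354092 between F2rl3 and Isx, with 224, 216, 238 and 181 tags in Cxcr3-/- monocytes, WT monocytes, Cxcr3-/- CMP/GMP and WT CMP/GMP, and chr5:148739021-148739570 between Ubl3 and Katnal1, with 214, 209, 242 and 145 in the same order. No list of artefact-prone regions was applied, and repeated sequence could not be looked up without a genome.

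Monocytes and CMP/GMP were compared first by the libraries in which a region was called. Of the 5658 desert regions, 2231 (39.4%, 95% Clopper-Pearson interval 38.2 to 40.7%) were called in all 4 libraries, against 49.8% of all regions with an interval in at least 2 lists and 45.9% of distal regions. Another 1523 (26.9%, 25.8 to 28.1%) were called in both monocyte libraries only, against 19.4% of all regions and 20.5% of distal ones. In both CMP/GMP libraries only there were 825 (14.6%, 13.7 to 15.5%), against 9.79% of all and 11.5% of distal regions. A larger share of desert regions was thus called in 1 cell type, and a smaller share in all libraries. By genotype, 29 desert regions (0.513%) were called in both Cxcr3-/- libraries only, against 0.661% of all regions, and 71 (1.25%) in both WT libraries only, against 1.04%. Of the mixed patterns, 337 (5.96%) were in all but WT CMP/GMP, against 6.64%, 112 (1.98%) in all but Cxcr3-/- CMP/GMP, against 1.67%, 106 (1.87%) in all but WT monocytes, against 1.13%, and 295 (5.21%) in all but Cxcr3-/- monocytes, against 6.28%. Cxcr3-/- monocytes with WT CMP/GMP had 14 (0.247%), against 0.176%, and WT monocytes with Cxcr3-/- CMP/GMP had 115 (2.03%), against 3.43%.

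**Figure D1:**
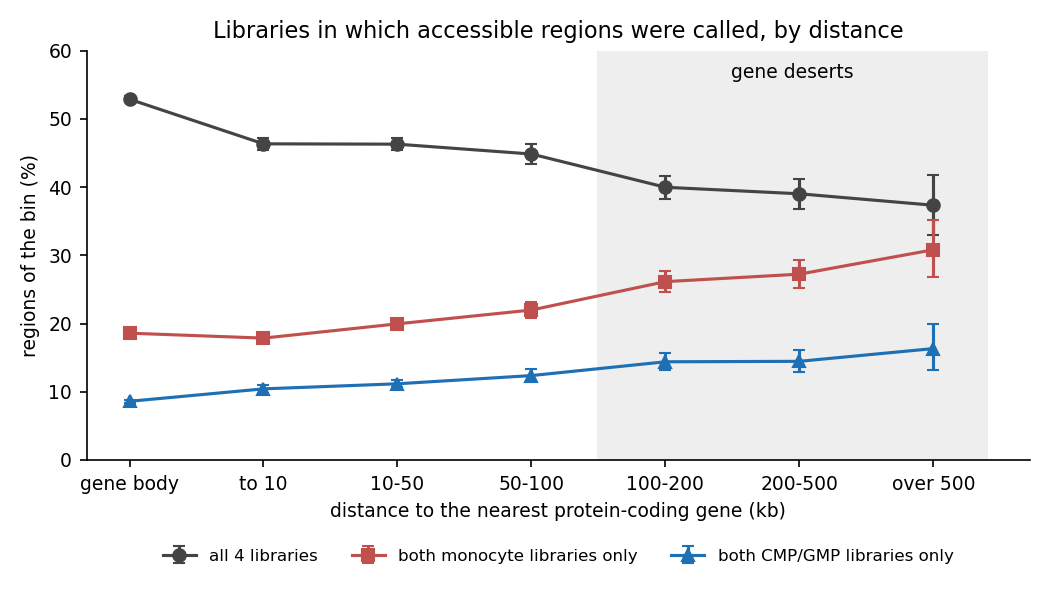
Share of regions (%) called in all 4 libraries, in both monocyte libraries only or in both CMP/GMP libraries only, by distance to the nearest protein-coding gene in kb; bars are 95% Clopper-Pearson intervals and the shaded bins are the gene deserts. The share called in all 4 libraries is 52.9% in gene bodies and 37.3% over 500 kb from a gene, while the monocyte share is 30.8% and the CMP/GMP share 16.3% in that last bin.

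These shares went on changing with distance inside the deserts, as the plot of shares by distance shows. At 100 to 200, 200 to 500 and over 500 kb from a gene, 1303 of 3259, 745 of 1909 and 183 of 490 regions were called in all 4 libraries, the last 2 being 39.0 and 37.3%. In the same bins 26.1, 27.2 and 30.8% were called in both monocyte libraries only and 14.4, 14.5 and 16.3% in both CMP/GMP libraries only, with intervals that overlapped between neighbouring bins. Weak regions are called in fewer libraries, and the part of this in the shares was not tested. Shares were also taken in classes of scaled tags, averaged over the libraries with a call, which leaves signal in the other libraries unmatched. Below 20 scaled tags, 32.7% (31.0 to 34.4%) of desert regions were called in both monocyte libraries only, against 24.8% (23.9 to 25.7%) of distal regions. Among regions with 20 to 40 scaled tags, 22.8% (20.9 to 24.7%) of desert regions were called in both monocyte libraries only, against 17.7% (16.8 to 18.7%) of distal regions. Among those with at least 60 scaled tags the shares were 13.6% (10.4 to 17.5%) and 12.2% (10.5 to 14.1%), with overlapping intervals. List length mattered as well: the WT monocyte list was the longest, with 98257 intervals, and the Cxcr3-/- monocyte, Cxcr3-/- CMP/GMP and WT CMP/GMP lists had 78244, 80171 and 69521. With lists cut to equal length, 23.3% of desert regions were called in both monocyte libraries only and 20.3% in both CMP/GMP libraries only, against 16.7% and 14.6% of the regions within 100 kb of a gene.

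The strongest monocyte-only regions lay near genes of varied function. Between Kif2a and Zswim6, chr13:107485605-107486038 had 133 tags in Cxcr3-/- monocytes and 152 in WT monocytes. Both chr13:110929546-110929967, with 136 and 146 tags, and chr13:110941593-110942115, with 125 and 129 tags in Cxcr3-/- and WT monocytes, lie between Plk2, a stress-induced kinase gene, and Actbl2. The region beside let-7c described above is also among the strongest. None of these regions was called in either CMP/GMP library.

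The strongest CMP/GMP-only regions had fewer tags. Near Cd93, which encodes a receptor of stem cells, monocytes and endothelium, chr2:148563389-148563809 had 144 tags in Cxcr3-/- CMP/GMP and 92 in WT CMP/GMP. Next to Ccnd2, the gene of the cell cycle regulator cyclin D2, chr6:127263945-127264332 had 115 and 68 tags in Cxcr3-/- and WT CMP/GMP. Others lay between Irf2bp2 and Tomm20 (92 and 49 tags in Cxcr3-/- and WT) and between Ntrk2 and Agtpbp1 (86 and 46). In each of them the Cxcr3-/- library, which had the higher background density of 194 against 135 tags per 10 kb in WT, had more raw tags, and the intervals of the scaled Cxcr3-/- to WT ratio all included 0.

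**Figure D2:**
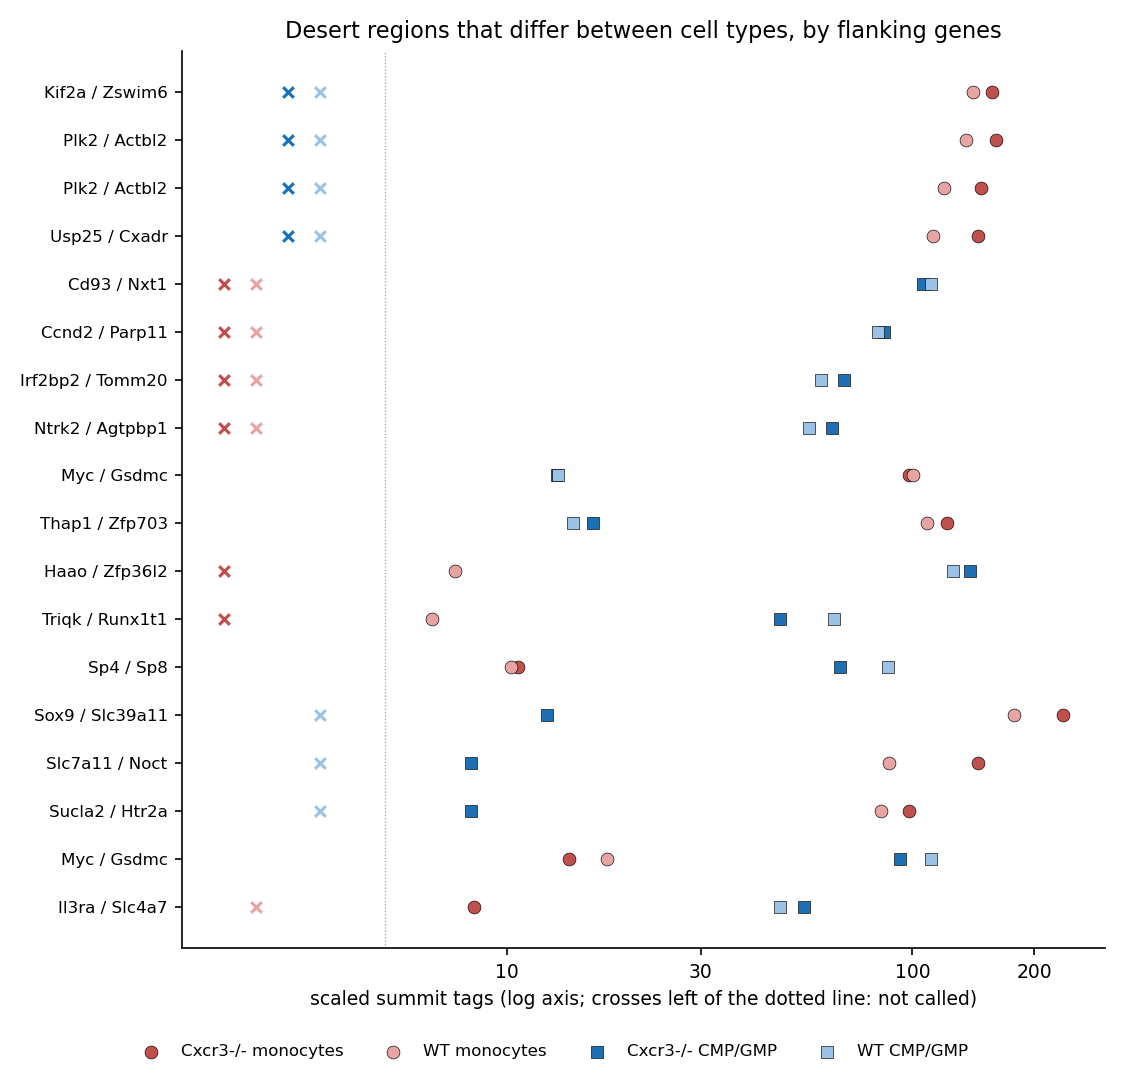
Scaled summit tags (log axis) in the 4 libraries for desert regions among the strongest called in 1 cell type and among those with the largest cell type ratios, each row named by its flanking protein-coding genes; crosses left of the dotted line mark libraries without a call. In each row the monocyte and CMP/GMP points stand apart, as between Thap1 and Zfp703, where monocytes have 122 and 109 scaled tags in Cxcr3-/- and WT and CMP/GMP have 16.2 and 14.5.

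Where a region was called in both cell types, signal was compared directly. In Cxcr3-/- cells 1157 desert regions had a ratio, with a median monocyte to CMP/GMP log2 ratio of 0.55, against 0.08 over all regions with a ratio. Of them 368 (31.8%) were more than 2-fold higher in monocytes, against 14.7% of all regions, and 63 (5.45%) more than 2-fold lower, against 5.86%. In WT cells 1074 had a ratio, with a median of 0.29, against 0.12 over all regions. There 248 (23.1%) were more than 2-fold higher, against 12.6% of all, and 9.40% more than 2-fold lower, against 6.41%. Distal regions, 10 to 100 kb from a gene, lay between for the medians and higher shares. In Cxcr3-/- cells their median was 0.23, with 20.6% more than 2-fold higher and 7.64% lower. In WT cells their median was 0.18, with 16.8% higher and 9.85% lower, the latter above the share of desert regions. With a minimum of 20 instead of 30 scaled tags the WT counts were 325 higher and 252 lower, without a share over all regions to set beside them. Scaling by background tags instead gave medians of 0.93 in Cxcr3-/- and 1.24 in WT cells, with shifts of 0.32 and 0.87 that apply to all regions alike. By that scaling 532 (46.8%) were more than 2-fold higher and 28 (2.46%) lower in Cxcr3-/- cells, against 23.5 and 2.52% of all regions, and 733 (61.9%) higher and 21 (1.77%) lower in WT cells, against 52.4 and 0.926% of all.

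Cell type ratios of single desert regions were alike in the 2 genotypes, which share no library in this comparison. Of 975 desert regions with a ratio in both genotypes, 580 were above 0 and 195 below 0 in both, and 200 differed in sign. In both genotypes 181 were more than 2-fold higher and 33 more than 2-fold lower in monocytes, and 0 were past 2-fold in opposite directions. Of 23240 regions within 100 kb of a gene with both ratios, 9851 were above 0 and 7495 below 0 in both, and 5894 differed in sign. Among those regions 1852 were more than 2-fold higher and 728 lower in both genotypes, and 0 were past 2-fold in opposite directions. Pearson's r over these 975 regions was 0.836 and Spearman's rho 0.804, as a description over regions that share libraries and depth within each axis; over 23240 regions within 100 kb of a gene they were 0.799 and 0.735.

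**Figure D3:**
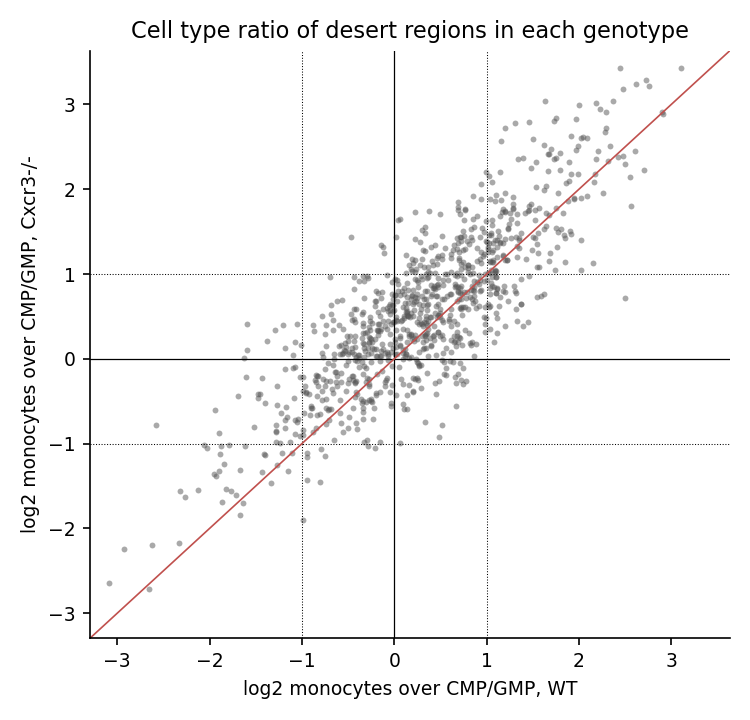
Monocyte over CMP/GMP log2 ratio of scaled summit tags in Cxcr3-/- cells (vertical) against WT cells (horizontal) for the 975 desert regions with a ratio in both; the red line marks equal ratios and dotted lines mark 2-fold. Points follow the line (r = 0.836), with 181 past 2-fold higher in both genotypes and 33 past 2-fold lower, against 1852 and 728 of 23240 regions within 100 kb of a gene.

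The extremes of these ratios named deserts of both cell types. Between Thap1 and Zfp703, chr8:26813171-26813579 had 103 tags in Cxcr3-/- monocytes and 117 in WT monocytes, against 22 in Cxcr3-/- CMP/GMP and 12 in WT CMP/GMP, with log2 ratios of 2.91 (2.23 to 3.64) in Cxcr3-/- and 2.90 (2.05 to 3.90) in WT cells. Near Sox9, chr11:113063092-113063772, inside the lncRNA 2610035D17Rik, had 199 and 192 tags in Cxcr3-/- and WT monocytes, against 17 tags in Cxcr3-/- CMP/GMP and no call in WT CMP/GMP (log2 ratio 4.23, 3.51 to 5.04, in Cxcr3-/-). Sox9 is best known as a cartilage and sex-determination factor.

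On the CMP/GMP side, chr17:83990405-83990978, between Haao and Zfp36l2, the gene of an RNA-binding protein needed by blood stem cells, had 8 tags in WT monocytes and no call in Cxcr3-/- monocytes, against 188 tags in Cxcr3-/- CMP/GMP and 104 in WT CMP/GMP (log2 ratio −4.08, −5.33 to −3.05, in WT). Between Triqk and Runx1t1, whose human counterpart is fused to RUNX1 in acute myeloid leukaemia, chr4:13217698-13218121 had 7 tags in WT monocytes and no call in Cxcr3-/- monocytes, against 64 in Cxcr3-/- CMP/GMP and 53 in WT CMP/GMP. Next to Il3ra, the gene of the interleukin-3 receptor alpha chain, chr14:14478198-14478520 had 7 tags in Cxcr3-/- monocytes and no call in WT monocytes, against 73 and 39 in Cxcr3-/- and WT CMP/GMP. Between Sp4 and Sp8, chr12:118569585-118570168 had 9 and 11 tags in Cxcr3-/- and WT monocytes, against 90 and 72 in Cxcr3-/- and WT CMP/GMP, the lowest ratio of any desert region called in all 4 libraries in WT cells, −3.09 (−4.16 to −2.17).

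Which genes border the deserts was described with 4 lists of flanking genes. A member of a list of 39 myeloid transcription factor genes flanked 312 desert regions (5.51%, 4.93 to 6.14%), against 1.58% of 29670 other regions outside genes. For 32 stem and progenitor transcription factor genes the count was 238 (4.21%, 3.70 to 4.76%), against 1.07%, and for 50 developmental factor genes of other tissues 129 (2.28%), against 0.893%. For 37 myeloid receptor and cytokine genes it was 76 (1.34%), against 1.36%, a share near that of the other sites. Each list's count rests on few deserts, 14 genes for myeloid and 11 for progenitor factors. Around the myeloid factors 100 of the 312 desert regions (32.1%, 26.9 to 37.5%) were called in both monocyte libraries only, an interval that reaches the 26.9% of all desert regions, against 19.4% of all regions. In both CMP/GMP libraries only there were 19 (6.09%, 3.71 to 9.35%), against 14.6% of all desert regions and 9.79% of all regions. Around the progenitor factors these were 64 (26.9%) and 52 (21.8%) of 238, the first being the share of all desert regions, and around the receptors 7 (9.21%) and 21 (27.6%) of 76.

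Among the myeloid factors, Zeb2, a repressor that directs monocyte and dendritic cell fates, bordered 70 desert regions, 33 of them monocyte-only and 6 CMP/GMP-only. Id2, an inhibitor of helix-loop-helix factors, bordered 48, with 9 monocyte-only and 3 CMP/GMP-only. Klf4, a factor that promotes monocyte differentiation, bordered 41, of which 16 were monocyte-only and 0 CMP/GMP-only. Jun bordered 32 (7 and 2) and Maf, the macrophage factor c-Maf, 28 (10 and 2). Tcf4 bordered 25 (3 and 4) and Mef2c 24 (8 and 1). Progenitor factors were divided: Myc bordered 76 of the 238, with 39 of the 64 monocyte-only regions and 7 CMP/GMP-only, whereas Mycn bordered 12, with 0 monocyte-only and 10 CMP/GMP-only, Sox4 36, with 3 and 10, and Meis1 9, with 1 and 5. Runx1 bordered 32, with 4 and 3, and Bcl11a 28, with 5 and 5. Satb1 bordered 19 and Gata3 15, each with 5 and 5. Of the receptors, Ptprc, which encodes the leukocyte antigen CD45, bordered 23 (3 and 4), Cxcr4, the chemokine receptor that holds progenitors in the marrow, 18 (0 and 5) and Kit, the stem cell factor receptor, 8 (0 and 4).

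The 6 deserts with the most regions were Adam6a to Zfp386 (96), Nmbr to Cited2 (73), Zeb2 to Acvr2a (70), Myc to Gsdmc (63), Eea1 to Btg1 (52) and Adgrl2 to Adgrl4 (51). The first is the immunoglobulin heavy chain locus, which counts as a desert because its variable gene segments are not annotated as protein-coding genes. It was open in these myeloid libraries, with 57 of its 96 regions called in all 4, against 39.4% of desert regions and 49.8% of all regions. In all, 125 desert regions lay within 100 kb of an immunoglobulin or T cell receptor gene segment. The B cell genes Cd79a, Ms4a1, Pax5 and Ebf1 each had a called interval in every library, and the Cd79a locus had 126, 169, 210 and 237 summed scaled tags in Cxcr3-/- monocytes, WT monocytes, Cxcr3-/- CMP/GMP and WT CMP/GMP. The Ms4a1 locus went the other way, with 119, 117, 45.8 and 32.7 in the same order; the part of B cells in the result was not tested. The Eea1 to Btg1 desert was the densest of the 6, with 140 regions per Mb, and leaned to monocytes, with a median log2 cell type ratio of 1.02 over 16 regions in Cxcr3-/- and 0.82 over 16 in WT cells.

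The desert downstream of Myc, the growth-regulating transcription factor gene, contained regions of both kinds. Of its 63 regions 35 were called in both monocyte libraries only, 5 in both CMP/GMP libraries only and 15 in all 4. Over all desert regions these shares were 26.9, 14.6 and 39.4%, and over all regions 19.4, 9.79 and 49.8%. Within the lncRNA Pvt1, chr15:62251901-62252426, 261539 bp from Myc, had 83 tags in Cxcr3-/- monocytes and 108 in WT monocytes, against 18 in Cxcr3-/- CMP/GMP and 11 in WT CMP/GMP, with log2 ratios of 2.88 (2.14 to 3.71) and 2.91 (2.02 to 3.96) in Cxcr3-/- and WT cells. The strongest region of the desert, 330442 bp from Myc, was monocyte-only with 108 and 129 tags in Cxcr3-/- and WT. At the far end, 1657691 bp from Myc, chr15:63648053-63648638 had the opposite pattern, with 12 tags in Cxcr3-/- monocytes and 19 in WT monocytes, against 126 in Cxcr3-/- CMP/GMP and 92 in WT CMP/GMP, and log2 ratios of −2.71 (−3.70 to −1.86) and −2.66 (−3.45 to −1.93) in Cxcr3-/- and WT cells. A cluster of enhancers that drives Myc in blood progenitors is known from the far end of this desert, and whether this region belongs to it was not tested. Another region in Pvt1, 191140 bp from Myc, was also higher in CMP/GMP, with 16 and 13 tags in Cxcr3-/- and WT monocytes, against 79 and 48 in Cxcr3-/- and WT CMP/GMP.

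**Figure D4:**
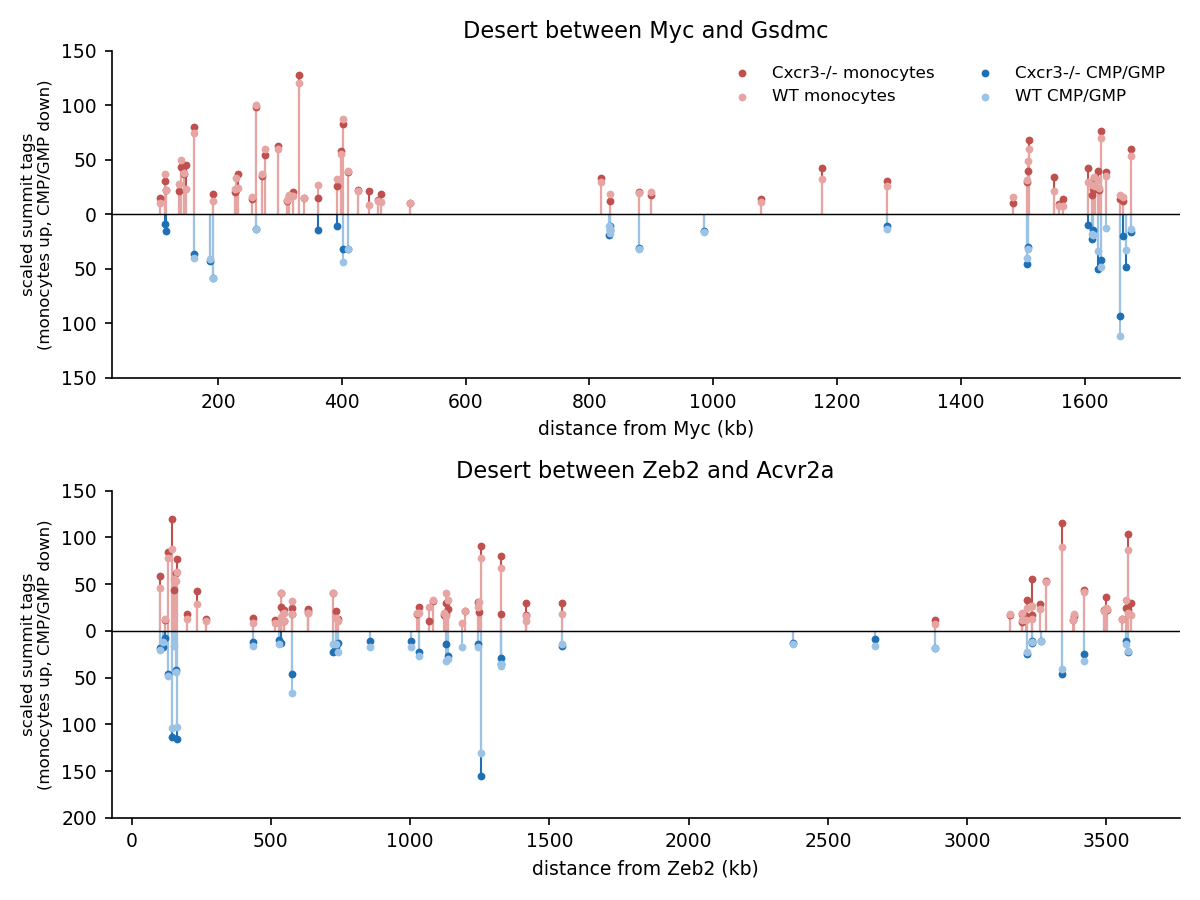
Scaled summit tags of the desert regions between Myc and Gsdmc (63 regions) and between Zeb2 and Acvr2a (70 regions), by distance in kb from Myc or Zeb2, with monocyte libraries drawn upward and CMP/GMP libraries downward; a library without a call has no line. Most regions of the Myc desert have monocyte lines only, and the highest CMP/GMP line stands at its far end, 1657691 bp from Myc.

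In the Zeb2 to Acvr2a desert the strongest region, chr2:46370698-46371411, 1253255 bp from Zeb2, had 77 tags in Cxcr3-/- monocytes and 84 in WT monocytes, against 210 in Cxcr3-/- CMP/GMP and 108 in WT CMP/GMP. Its WT cell type log2 ratio was −0.74, but 0.13 by background tags. Closer to the gene, chr2:45279447-45279898, 162004 bp away, had 65 and 68 tags in Cxcr3-/- and WT monocytes, against 157 and 85 in Cxcr3-/- and WT CMP/GMP, with log2 ratios of −0.59 (−1.03 to −0.17) and −0.70 (−1.18 to −0.23) in Cxcr3-/- and WT cells. By background tags these were −0.28 and 0.17, so that the direction in WT cells depends on the scaling. Near the other edge, chr2:48694440-48694860 had 88 and 93 tags in Cxcr3-/- and WT monocytes, against 31 and 18 in Cxcr3-/- and WT CMP/GMP. An upstream Zeb2 enhancer is known to be needed for monocyte and dendritic cell fates, and whether any of these regions is that element was not tested.

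Cxcr3-/- and WT cells were then compared within each cell type. In monocytes 1530 desert regions had a ratio, with a median Cxcr3-/- to WT log2 ratio of 0.18 (quartiles −0.04 and 0.43), against 0.01 over all regions with a ratio. More than 2-fold higher in Cxcr3-/- were 15 (0.980%), against 0.297% of all regions, and more than 2-fold lower 3 (0.196%), against 0.379%. In CMP/GMP 1056 had a ratio, with a median of −0.07 (quartiles −0.29 and 0.15), against 0.03 over all regions. There 0 desert regions were more than 2-fold higher, against 0.0644% of all regions, and 5 (0.473%) more than 2-fold lower, against 0.174%. The sign of these medians depends on the scaling, since background tags shift all regions by −0.37 in monocytes and 0.19 in CMP/GMP and give desert medians of −0.20 and 0.12. Over all regions the background-scaled medians were −0.37 and 0.23, so that desert regions remained above all regions in monocytes and below them in CMP/GMP. The balance of counts in monocytes also turned, since by background tags 1 desert region was more than 2-fold higher and 32 lower, against 10 and 1915 of all regions. In CMP/GMP 1 was higher and 0 lower by background tags, against 52 and 0 of all regions. With a minimum of 20 scaled tags 54 were higher and 6 lower in monocytes, and 4 higher and 24 lower in CMP/GMP. Shares over all regions at that minimum are not given here, so these counts do not describe desert regions in particular.

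The genotype ratio moved with distance from genes both outside and inside the deserts, in opposite directions in the 2 cell types. In monocytes the median log2 ratio was −0.01 in gene bodies and −0.03 up to 10 kb outside them. It was 0.05 at 10 to 50 kb and 0.12 at 50 to 100 kb. Inside the deserts it was 0.14 at 100 to 200 kb, 0.22 at 200 to 500 kb and 0.44 beyond 500 kb, where 114 regions had a ratio. In CMP/GMP it was 0.05 in gene bodies and 0.02, 0.008 and 0.0004 in the same bins outside deserts. In the same 3 desert bins it was −0.02, −0.09 and −0.21, the last over 94 regions. A share that needs no scaling showed the same: of the summit tags in regions called in all 4 libraries, desert regions held 4.64% (4.60 to 4.67%) in Cxcr3-/- monocytes, against 4.09% (4.07 to 4.12%) in WT monocytes, and 3.78% (3.75 to 3.80%) in Cxcr3-/- CMP/GMP, against 4.05% (4.02 to 4.08%) in WT CMP/GMP. Without the 3 regions at the ribosomal RNA pseudogene the shares were 4.55, 4.02, 3.61 and 3.90% in Cxcr3-/- monocytes, WT monocytes, Cxcr3-/- CMP/GMP and WT CMP/GMP. The background density, a measure of depth and of tags outside open sites, was 97.2 against 95.6 tags per 10 kb in Cxcr3-/- and WT monocytes and 194 against 135 in Cxcr3-/- and WT CMP/GMP, and its part in the result was not tested. With 1 library per group, genotype and library cannot be told apart.

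**Figure D5:**
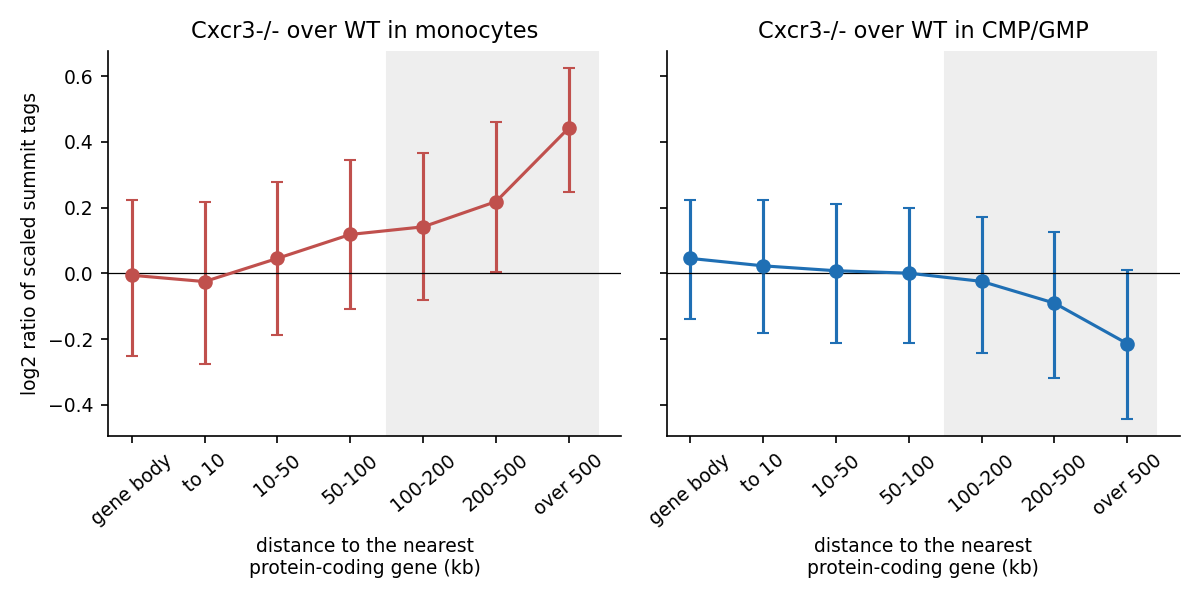
Median log2 ratio of scaled summit tags, Cxcr3-/- over WT, by distance to the nearest protein-coding gene in kb, in monocytes (left) and CMP/GMP (right); bars span the quartiles over regions and the shaded bins are the gene deserts. The median beyond 500 kb is 0.44 in monocytes and −0.21 in CMP/GMP.

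Single desert regions with a large genotype ratio were few and of low counts. In monocytes the largest was between Grxcr1 and Kctd8, where chr5:68735234-68735574 had 46 tags in Cxcr3-/- and 23 in WT (log2 ratio 1.35, 0.59 to 2.13), followed by a region between Lrig3 and Atp23 with 40 tags in Cxcr3-/- and 21 in WT. The smallest was near Dusp4, a phosphatase gene that restrains MAP kinases, where chr8:34287762-34288169 had 24 tags in Cxcr3-/- and 67 in WT (log2 ratio −1.14, −1.87 to −0.44). In CMP/GMP the smallest ratio was between Impg1 and Htr1b, with 49 tags in Cxcr3-/- and 66 in WT (−1.14, −1.71 to −0.59), and the largest between Prr16 and Ftmt, with 55 tags in Cxcr3-/- and 17 in WT (0.98, 0.17 to 1.86). Next came a region between Cd83 and Jarid2, the gene of a Polycomb cofactor, with 63 tags in Cxcr3-/- and 21 in WT (0.87, 0.14 to 1.66). Of 694 desert regions with a genotype ratio in both cell types, 0 were past 2-fold in both, and r between the cell types was −0.262; of 19034 regions within 100 kb of a gene also 0 were, with r = −0.173.

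The labels of the cell types were checked on marker genes. All 8 monocyte genes and all 8 CMP/GMP genes listed had a called interval in every library. Summed scaled tags over the monocyte loci were 2051 and 2345 in Cxcr3-/- and WT monocytes, against 1734 and 1561 in Cxcr3-/- and WT CMP/GMP. Of these genes Ccr2 went the other way, with 73.3 and 99.5 in Cxcr3-/- and WT monocytes, against 135 and 136 in Cxcr3-/- and WT CMP/GMP, as did Ly6c2, with 54.4 and 43.7 against 112 and 76.3. Cd14 was nearly level, with 228 and 227 against 238 and 236. Over the CMP/GMP loci the sums were 1108 and 1190 in Cxcr3-/- and WT monocytes, against 2120 and 1934 in Cxcr3-/- and WT CMP/GMP. Cd34 overlapped between the cell types, with 295 and 202 in Cxcr3-/- and WT monocytes, against 227 and 281 in Cxcr3-/- and WT CMP/GMP. Gfi1 was level in WT cells, with 96.7 in monocytes and 96.9 in CMP/GMP. Elane and Prtn3 had the same values in all libraries but Cxcr3-/- monocytes, so these sums count tags shared by both loci more than once. Of the 5 T and NK cell genes 2, Cd3e and Ncr1, had no interval in any library, and of the 3 hepatocyte genes 1 had none in each library, Alb in monocytes and Ttr in CMP/GMP. Of the 5 erythroid genes Gata1 had no interval in either monocyte library. The other erythroid and the stromal and endothelial loci carried calls in every library, and accessibility at a locus does not show that the gene is expressed.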

How the data were processed

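Accessible intervals of 4 libraries, 1 per group by the labels, were used; with no replicates no test was made. Per the submitters' processing notes the build was mm10 and Trim Galore, Bowtie2 and SAMtools were used; whether duplicate sequencing was pooled, and the peak caller, are not given in the sources used here. Scores deposited per interval (10 times −log10 q, cut to whole numbers) were not used. The authors' deposited fold enrichment is the ratio of summit pileup to expected background. For each interval the authors deposited a −log10 p and a −log10 q, and the deposited offset (unit other) gives the summit position.

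Fold and −log10 p give the summit tags under a Poisson background with 1 tag added; whole numbers within 0.001 were found for all but 0, 1, 2 and 0 intervals in Cxcr3-/- monocytes, WT monocytes, Cxcr3-/- CMP/GMP and WT CMP/GMP. These values were divided by 0.846, 1.08, 1.35 and 0.826 in the same order, from the median over 44591 regions called in all 4 libraries. Ratios needed a call in both libraries and at least 30 scaled tags on average. At median summit tags of 21 to 29 per library a single region is measured coarsely. The scripts were tested on simulated data. Genes came from RefSeq GRCm38.p6, 21627 protein-coding and 12697 lncRNA genes. For a gene with several promoter windows, the one sharing most bases with a region was taken. Flank lists matched all their 39, 32, 37 and 50 symbols.

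Regions were named by rule: the 5 strongest of each of 3 presence classes, the 3 largest and smallest ratios of each of 4 comparisons, the 6 fullest deserts, the 3 farthest regions and those at the distance limit; not all are printed, and some items are not reported here. The lncRNA, miRNA, Myc and Zeb2 examples were added after their values were seen. The desert regions and gene lists were chosen with earlier results of these data known. Python 3.11.15, pandas 2.3.3, NumPy 2.4.6 and SciPy 1.17.1 were used.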

Additional observations from a re-analysis of the deposited data

Results flagged for a closer look

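The share of summit tags in desert regions differed between genotypes in opposite directions in the 2 cell types. It was 0.543 percentage points higher in Cxcr3-/- than in WT monocytes, and in CMP/GMP the difference, Cxcr3-/- minus WT, was −0.278 percentage points. Likewise the median log2 ratio of desert regions minus that of all regions was 0.170 in monocytes and −0.100 in CMP/GMP. With 1 library per group neither difference was tested.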

How the results depend on the processing

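Called regions and ratios changed little with lists of equal length, −log10 q of at least 5, merging at 50% overlap, or leaving out the immunoglobulin and T cell receptor loci or the 3 regions at the ribosomal RNA pseudogene (the last 2 alternatives were added after seeing the data): no median or tag share moved beyond its spread and no count by over 1.5 times. The exceptions were shares of 1 cell type: with equal lists those called in both monocyte libraries only were 23.3% and in both CMP/GMP libraries only 20.3%, and with −log10 q of at least 5 the CMP/GMP share was 16.1%, outside the intervals of the reported shares. The largest and smallest ratios kept their direction under every alternative run for them. Other ratios of the named regions turned sign under background scaling: 0 of 43 cell type ratios in Cxcr3-/- and 10 of 39 in WT cells, and 23 of 52 genotype ratios in monocytes and 10 of 49 in CMP/GMP. In desert lncRNA promoters these were 10 of 75, 23 of 68, 25 of 86 and 16 of 80 in the same order. With a limit of 50 kb from genes, the values that moved were 10121 desert regions, 41.8% called in all 4 libraries, 2504 monocyte-only regions, 1377 CMP/GMP-only regions, a Cxcr3-/- minus WT tag share of 0.804 points (in monocytes), −0.396 points (in CMP/GMP), a median log2 ratio of 0.16 (genotype in monocytes), −0.028 (genotype in CMP/GMP), 0.44 (cell type in Cxcr3-/-), a 2-fold higher count of 1 (genotype in CMP/GMP), 607 (cell type in Cxcr3-/-), 419 (cell type in WT) and a 2-fold lower count of 7 (genotype in monocytes), 137 (cell type in Cxcr3-/-), 195 (cell type in WT). With a limit of 200 kb, the values that moved were 2399 desert regions, 4.63 desert regions per Mb, 671 monocyte-only regions, 356 CMP/GMP-only regions, a Cxcr3-/- minus WT tag share of 0.295 points (in monocytes), −0.186 points (in CMP/GMP), a median log2 ratio of 0.27 (genotype in monocytes), −0.11 (genotype in CMP/GMP), 0.68 (cell type in Cxcr3-/-), 0.22 (cell type in WT), a 2-fold higher count of 155 (cell type in Cxcr3-/-), 82 (cell type in WT) and a 2-fold lower count of 19 (cell type in Cxcr3-/-), 47 (cell type in WT). With deserts defined by all annotated genes, the values that moved were 622 desert regions, 34.2% called in all 4 libraries, 194 monocyte-only regions, 112 CMP/GMP-only regions, a Cxcr3-/- minus WT tag share of 0.0745 points (in monocytes), −0.0405 points (in CMP/GMP), a median log2 ratio of 0.23 (genotype in monocytes), −0.13 (genotype in CMP/GMP), 0.83 (cell type in Cxcr3-/-), 0.39 (cell type in WT), a 2-fold higher count of 4 (genotype in monocytes), 43 (cell type in Cxcr3-/-), 31 (cell type in WT) and a 2-fold lower count of 0 (genotype in monocytes), 2 (genotype in CMP/GMP), 2 (cell type in Cxcr3-/-), 9 (cell type in WT). With intervals in at least 3 lists, the values that moved were 3081 desert regions and 72.4% called in all 4 libraries. With background tags as scaling, the values that moved were a median log2 ratio of −0.20 (genotype in monocytes), 0.12 (genotype in CMP/GMP), 0.93 (cell type in Cxcr3-/-), 1.24 (cell type in WT), a 2-fold higher count of 1 (genotype in monocytes), 1 (genotype in CMP/GMP), 733 (cell type in WT) and a 2-fold lower count of 32 (genotype in monocytes), 0 (genotype in CMP/GMP), 28 (cell type in Cxcr3-/-), 21 (cell type in WT). With at least 20 scaled tags, the values that moved were a median log2 ratio of 0.46 (cell type in Cxcr3-/-), 0.16 (cell type in WT), a 2-fold higher count of 54 (genotype in monocytes), 4 (genotype in CMP/GMP) and a 2-fold lower count of 6 (genotype in monocytes), 24 (genotype in CMP/GMP), 124 (cell type in Cxcr3-/-), 252 (cell type in WT). With at least 60 scaled tags, the values that moved were a median log2 ratio of 0.23 (genotype in monocytes), 0.64 (cell type in Cxcr3-/-), 0.18 (cell type in WT), a 2-fold higher count of 0 (genotype in monocytes), 115 (cell type in Cxcr3-/-), 54 (cell type in WT) and a 2-fold lower count of 0 (genotype in monocytes), 0 (genotype in CMP/GMP), 11 (cell type in Cxcr3-/-), 21 (cell type in WT). Both genotype medians reversed under background scaling. The RUNX share in desert lncRNA promoters was 5.56% at 200 kb. A changed limit also changes the number of regions admitted. Why the values moved was not tested. No paired analysis was possible because each group has 1 library and the labels carry no replicate numbers, so no library could be left out within a group. Motif shares around region summits, and other window sizes for them, were not run without a genome.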
